A study of Mus musculus with 6 samples.

Results

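Aquaporins are membrane channels for water, and some of them also pass glycerol, other small solutes or ions. The 9 aquaporin genes of the nephron and collecting duct, namely Aqp1, Aqp2, Aqp3, Aqp4, Aqp5, Aqp6, Aqp7, Aqp8 and Aqp11, were taken by gene symbol from count tables of 24422 genes. The rule uses gene symbols and no measured value, and all 9 were listed and passed the filter on low counts. The tables were made from poly-A RNA of whole mouse kidneys on a C57BL/6 background at postnatal day 60, with 3 control (wild type) and 3 TfR1KO;KspCre libraries. All mice were fed an iron-sufficient diet with 220 ppm iron. The genotype of the second group is Tfr1f/f;KspCre, in which a Cre recombinase under the Ksp-cadherin (Cdh16) promoter deletes floxed parts of the transferrin receptor gene Tfrc (TfR1), the main route of iron uptake from transferrin. That promoter is active in part of the tubule and in the collecting duct, so the other cells of these kidneys were not targeted. The libraries labelled TfR1KO;KspCre are called knockouts below. The question addressed here is which of the water channels differed between these kidneys, and in which libraries.

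In the proximal tubule and the thin descending limb, AQP1 sits in both the apical and the basolateral membrane and carries the bulk of water reabsorption, while AQP7 in the brush border of the last proximal segment takes up glycerol and AQP11 lies inside proximal cells in the endoplasmic reticulum. In principal cells of the collecting duct, vasopressin acts through its V2 receptor and cyclic AMP to move AQP2 to the apical membrane and to raise Aqp2 transcription, and water leaves through AQP3 and AQP4 in the basolateral membrane. AQP6 is held in vesicles of acid-secreting intercalated cells, AQP5 is found in few renal cells, and AQP8 is mainly intracellular.

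Total counts were between 18036845 and 21001341 in the controls and between 11501053 and 19576330 in the knockouts, with knockout 3 the smallest library. Values are given as CPM, counts per 1000000 counts of a library after TMM scaling, for control 1, 2 and 3 and knockout 1, 2 and 3 in that order. Tfrc itself stood at 138.5, 167.9 and 61.95 CPM in the controls and at 214.4, 85.96 and 40.6 CPM in the knockouts. The groups overlapped and knockout 1 was the highest of all 6, so counts over the whole gene in whole kidney gave no check of the labels. Cdh16, whose promoter drives the Cre, was at 1344 to 1540 CPM in the controls and 805.5 to 1424 CPM in the knockouts (edgeR quasi-likelihood, adjusted p = 0.545). All 8 markers of a whole kidney that were looked at, from podocyte to collecting duct, were detected in every library. Control 2 stood apart by sex-linked transcripts, its Xist-to-Y log2 ratio being -6.23 where the other 5 libraries had 10.77 to 12.29. Knockout 3 had 2.59% of its counts in the ribosomal RNA gene Rn45s, against 0.506% to 0.745% in the other 5 libraries. Each library was taken as a separate mouse, as the study counts its RNA-seq replicates in mice, although the labels do not tie libraries to animals.

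On the mm9 genome (GENCODE M1 gene models), Aqp2, Aqp5 and Aqp6 lie side by side on the plus strand of chromosome 15, from 99409487 to 99414976, 99421280 to 99425260 and 99431831 to 99435908. The gap between Aqp2 and Aqp5 was 6.3 kb and that between Aqp5 and Aqp6 was 6.6 kb. Aqp7 (40980107 to 40995172) and Aqp3 (41039755 to 41045216) share the minus strand of chromosome 4, 44.6 kb apart. Aqp11 (104874889 to 104886757, minus strand) and Aqp8 (130605808 to 130611517, plus strand) lie far apart on chromosome 7 and Aqp1 (55286426 to 55298549, plus strand) on chromosome 6. None of the 9 overlapped another annotated gene, and every 100-base word of their transcripts was unique among protein-coding transcripts.

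The 250 bases before the start are shown for Aqp2 and Aqp3, the principal cell pair whose levels ranged most widely among the knockouts, and for Aqp7 and Aqp11, whose levels were lower in every knockout. Sequences are from RefSeq (GRCm38.p6) and are written 5′ to 3′ on the gene's strand. Entries were taken for 8 of the 9 genes, Aqp4 having been left out before the search. Positions are mm9, found by exact match, on the plus strand for Aqp2 and the minus strand for the rest. Capitals mark matches, on either strand, to any of 5 short motifs. The cyclic AMP response half-site was searched as ACGTCA and the AP-1 site, bound by Fos and Jun proteins, as TGAGTCA. For the GATA factors, which include the principal cell factor GATA3, the letters were AGATAA, for the proximal tubule factor HNF1 the half-site GTTAAT, and for the core promoter the TATA box letters TATAAA.
Aqp2 chr15:99409237-99409486: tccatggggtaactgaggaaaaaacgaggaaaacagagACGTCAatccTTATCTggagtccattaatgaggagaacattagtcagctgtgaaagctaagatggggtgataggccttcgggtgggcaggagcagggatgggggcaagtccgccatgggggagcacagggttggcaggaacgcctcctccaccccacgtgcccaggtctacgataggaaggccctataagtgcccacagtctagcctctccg
Aqp3 chr4:41045217-41045466: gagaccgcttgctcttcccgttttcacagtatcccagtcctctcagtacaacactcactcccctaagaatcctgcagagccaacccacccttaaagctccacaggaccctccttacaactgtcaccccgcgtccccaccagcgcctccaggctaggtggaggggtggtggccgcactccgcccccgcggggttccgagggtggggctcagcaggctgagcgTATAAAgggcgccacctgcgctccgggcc
Aqp7 chr4:40995170-40995419: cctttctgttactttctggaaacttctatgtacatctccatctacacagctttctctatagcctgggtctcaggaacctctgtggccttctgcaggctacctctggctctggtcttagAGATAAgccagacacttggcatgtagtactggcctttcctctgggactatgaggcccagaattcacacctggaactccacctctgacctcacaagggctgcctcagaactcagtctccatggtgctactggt
Aqp11 chr7:104886758-104887007: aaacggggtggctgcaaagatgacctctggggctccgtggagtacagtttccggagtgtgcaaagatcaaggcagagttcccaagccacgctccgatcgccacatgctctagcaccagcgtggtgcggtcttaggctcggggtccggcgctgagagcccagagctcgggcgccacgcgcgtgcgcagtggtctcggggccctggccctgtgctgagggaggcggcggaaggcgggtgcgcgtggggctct
The Aqp2 window held the ACGTCA half-site 212 bases before the start and, on the other strand, the GATA letters 202 bases before it, and the matches did not overlap. Over all 32851 mouse promoter windows of this length, 6.5% held the half-site and 10% the GATA letters on either strand. The Aqp3 window held TATAAA 29 bases before the start, as did 12.4% of windows in some position. One GATA match lay 132 bases before the first of the Aqp7 starts, and the Aqp11 window held no match to any of the motifs. AP-1 letters (4.5% of windows) and the HNF1 half-site (6.4%) were in none of the 4 windows. These are matches of letters only.

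Of the 9 aquaporins, 3 were lower in the knockouts (Aqp4, Aqp7 and Aqp11), 0 were higher, and 6 did not pass the test (edgeR quasi-likelihood, adjusted p under 0.05 over all 15171 genes tested). Across all genes tested, 17.2% were called, 6.64% as lower and 10.6% as higher. The same 3 aquaporins were the only ones whose groups did not overlap, all with the knockouts below. Of all genes tested, 46.0% had groups that did not overlap, 22.2% with the knockouts below and 23.8% with them above. DESeq2 and limma-voom each called the same 3 aquaporins, where they called 32.2% (15.0% lower) and 13.4% (6.05% lower) of all genes. The median log2 fold change of the 9 was -0.36 and that of all genes 0.0209. In bulk RNA, fewer cells of a type and less RNA per cell cannot be told apart.

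**Figure D1:**
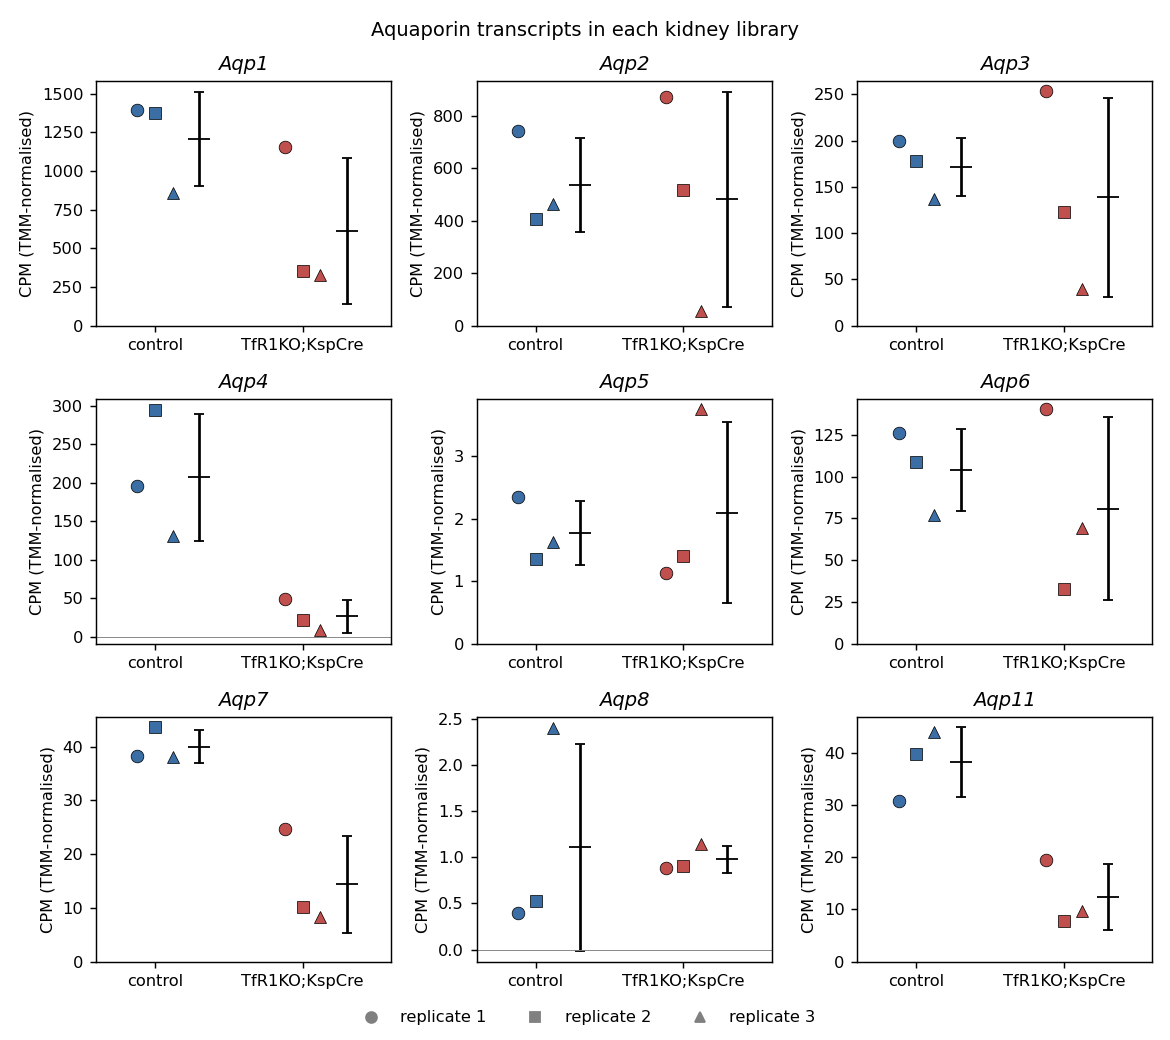
TMM-normalised CPM of each aquaporin in the 3 control (blue) and 3 TfR1KO;KspCre (red) libraries, with circles, squares and triangles for replicates 1, 2 and 3 and the mean ± SD (n = 3) beside them; each panel has its own linear axis. Aqp4, Aqp7 and Aqp11 lie below the control range in every knockout, while Aqp1, Aqp2, Aqp3 and Aqp6 of knockout 1 lie within or above it.

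Aqp4, which lies on the minus strand of chromosome 18 (mm9, 15547903 to 15562193), had the lowest fold change of the 9. It stood at 196.2, 294.3 and 130.6 CPM in the controls and at 48.88, 21.53 and 7.81 CPM in the knockouts. Every knockout was below every control, and the knockouts themselves spread 6.26-fold from highest to lowest. The fit gave a 7.91-fold lower level (log2 fold change -2.98, SE 0.66, n = 3 and 3, adjusted p = 0.0339 by edgeR). From 102 to 996 counts per knockout library lay behind these values, so counting error was small beside the spread. In the mouse, AQP4 protein is known from the basolateral membrane of principal cells and also from the last proximal segment, so whole kidney counts add at least these sources.

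Aqp11, whose loss in mice is known to give polycystic kidneys, was 3.085-fold lower in the knockouts. Its levels were 30.8, 39.79 and 43.94 CPM in the controls against 19.53, 7.83 and 9.65 CPM in the knockouts. Knockout 1 was the nearest to the controls but still below the lowest of them. The log2 fold change was -1.63 (SE 0.36, n = 3 and 3, adjusted p = 0.0339 by edgeR). Aqp7, the glycerol channel, was tight in the controls at 38.31, 43.55 and 38.06 CPM and stood at 24.74, 10.09 and 8.35 CPM in the knockouts. The groups were again separate with knockout 1 in between, and the level was 2.77-fold lower (log2 fold change -1.47, SE 0.40, n = 3 and 3, adjusted p = 0.0493 by edgeR).

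Aqp1, the channel of the proximal tubule and thin descending limb, did not pass the test over all libraries. It stood at 1392, 1377 and 856.3 CPM in the controls and at 1158, 352.6 and 324.1 CPM in the knockouts. Knockout 1 lay inside the control range and knockouts 2 and 3 well below it (log2 fold change -0.98, SE 0.54, n = 3 and 3, adjusted p = 0.219 by edgeR). Without knockout 1, Aqp1 was lower by -1.85 on the log2 scale (adjusted p = 0.00545), and 4 of the 9 aquaporins and 34.4% of all genes were called, 16.4% of genes as lower. Without knockout 1 the values were -3.82 for Aqp4, -2.12 for Aqp7 and -2.14 for Aqp11.

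The calls rested on all of the other 5 libraries. Leaving out control 1, 2 or 3, or knockout 2 or 3, left 0 aquaporins called, with 0, 0, 0, 73 and 2 genes called in all. The log2 fold change of Aqp4 was then -3.04, -2.65, -3.24, -2.86 and -2.56 (edgeR adjusted p = 0.0592 to 0.119), that of Aqp7 -1.52, -1.42, -1.51, -1.26 and -1.20 (0.102 to 0.139), and that of Aqp11 -1.78, -1.61, -1.52, -1.38 and -1.48 (0.0805 to 0.121). The direction was kept in each of these fits and 3 aquaporins had an unadjusted p under 0.05 in each. Adding the Xist-to-Y ratio as a covariate also left 0 aquaporins and 0 genes called, with values of -2.68, -1.42 and -1.60 for Aqp4, Aqp7 and Aqp11. Without control 2 the log2 fold change of Aqp4 moved the most toward 0 among the controls, and control 2 had the highest Aqp4 level.

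**Figure D2:**
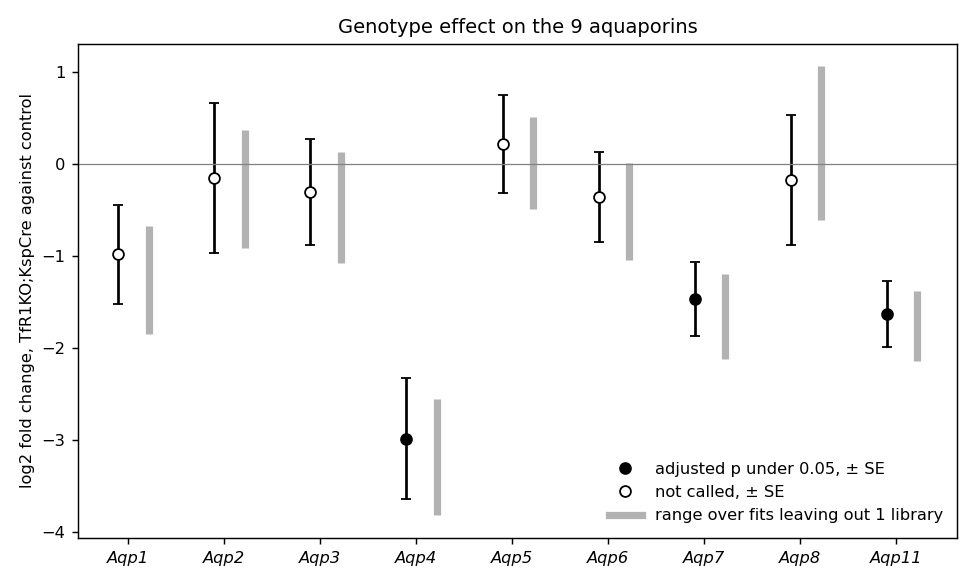
Log2 fold change (TfR1KO;KspCre against control, edgeR) of each aquaporin with its SE, filled where the adjusted p over all genes was under 0.05, and as a grey bar the range of the estimate over the 6 fits that each leave out 1 library. The bars of Aqp4, Aqp7 and Aqp11 stay below -1.1, those of Aqp2, Aqp3, Aqp5, Aqp6 and Aqp8 cross 0, and that of Aqp1 runs from -1.85 to -0.68.

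Aqp2, the vasopressin-regulated apical channel, had the widest spread of the 9 among the knockouts. Its levels were 740.5, 404.9 and 463.4 CPM in the controls and 873, 516.1 and 56.08 CPM in the knockouts. Knockout 1 was above and knockout 3 far below every control, a 15.6-fold range within the knockouts against 1.83-fold within the controls. Knockout 3 is also the library with the fewest counts and the highest Rn45s share, and the part of either in its Aqp2 and Aqp3 levels was not tested. The log2 fold change was -0.15 with an SE of 0.81 (n = 3 and 3, adjusted p = 0.904 by edgeR), and it took the other sign, 0.37, without knockout 3 and 0.13 without control 1. It was -0.94 with limma-voom (adjusted p = 0.535) and -0.71 with the replicate number as a block (edgeR adjusted p = 0.564).

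Aqp3, the basolateral water and glycerol channel of the same cells, had the same order of knockouts. It was at 199.5, 177.9 and 137.1 CPM in the controls and 253.2, 123.2 and 39.76 CPM in the knockouts. Knockout 1 lay above the controls and knockouts 2 and 3 below them, a 6.37-fold range within the knockouts (log2 fold change -0.31, SE 0.58, n = 3 and 3, adjusted p = 0.724 by edgeR). Without knockout 3 the estimate was 0.13.

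Aqp6 stood at 126, 108.7 and 77.38 CPM in the controls and 140.8, 32.87 and 69.26 CPM in the knockouts. Here it was knockout 2, not knockout 3, that was lowest, and knockout 1 was again above the controls (log2 fold change -0.36, SE 0.49, n = 3 and 3, adjusted p = 0.614 by edgeR). Without knockout 2 the estimate was 0.0142. Aqp5 was found at 1.35 to 2.34 CPM in the controls and 1.13, 1.41 and 3.75 CPM in the knockouts, on 23 to 49 counts per library, and Aqp8 on 8 to 40 counts. The log2 fold change was 0.22 (SE 0.53) for Aqp5 and -0.18 (SE 0.70) for Aqp8, with adjusted p of 0.788 and 0.872 (edgeR), and the sign changed without knockout 3 for Aqp5 (-0.49) and without control 3 for Aqp8 (1.06).

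Aquaporins outside the nephron set were near the detection limit. Aqp9, a glycerol channel of liver and leukocytes, had 5, 3 and 9 counts in the controls and 12, 16 and 12 in the knockouts. The knockouts were all above the controls, but Aqp9 did not pass the test (log2 fold change 1.24, SE 0.52, adjusted p = 0.125 by edgeR, unadjusted p = 0.0472). Mip, the lens aquaporin, had 0 to 3 counts per library and overlaps an antisense lincRNA, and Aqp12 had 0 counts in all 6 libraries.

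To set the channels against each other, CPM was divided by the length of each gene's merged exons in kb. In the controls Aqp1 stood at 460 ± 116.1 CPM per kb (SD, n = 3), Aqp2 at 378.7 ± 126.6, Aqp3 at 93.76 ± 17.34, Aqp6 at 50.5 ± 11.96, Aqp4 at 38.96 ± 15.5, Aqp11 at 28.88 ± 5.083 and Aqp7 at 14.13 ± 1.096 CPM per kb. Aqp5 and Aqp8 followed at 1.062 ± 0.306 and 0.7035 ± 0.7106 CPM per kb. Control ranges overlapped between Aqp1 and Aqp2, Aqp6 and Aqp4, Aqp4 and Aqp11, and Aqp5 and Aqp8, so these neighbours did not differ beyond their spread. The ranges of the remaining 4 neighbouring pairs were separate, with the upper gene higher in 3 of 3 controls.

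In the knockouts Aqp2 came first at 340.2 ± 289.2 CPM per kb and Aqp1 next at 232.8 ± 180.3, with overlapping ranges. Aqp4, at 4.906 ± 3.934 CPM per kb, went from rank 5 in the controls to rank 7 by its mean, with Aqp11 at 9.333 ± 4.763 and Aqp7 at 5.089 ± 3.183. Aqp7 was above Aqp4 in knockout 3 only, so these neighbours did not differ beyond their spread. Of all neighbours in the knockout order, only Aqp6 and Aqp11 had separate ranges. Within libraries the upper gene was higher in 3 of 3 knockouts also for Aqp1 over Aqp3, Aqp11 over Aqp7 and Aqp5 over Aqp8. The 9 genes summed to 1298, 1062 and 839.5 CPM per kb in the controls and to 1298, 596.9 and 233 CPM per kb in the knockouts, so that knockout 1 equalled the highest control and knockouts 2 and 3 lay below all controls. In raw counts they took 0.162% to 0.261% of a control library and 0.262%, 0.119% and 0.059% of knockouts 1, 2 and 3.

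**Figure D3:**
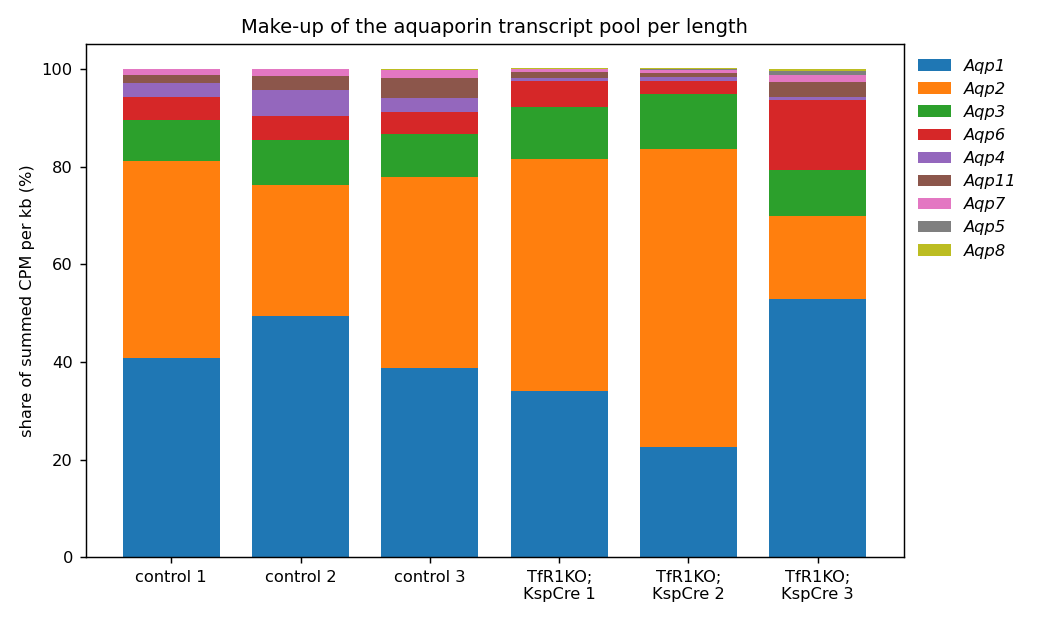
Share of each aquaporin (%) in the summed CPM per kb of the 9 genes, by library, as bars stacked from 0 to 100. Aqp1 and Aqp2 together fill most of every bar but in different proportion, with Aqp2 at 61.1% in knockout 2 and 17% in knockout 3, and the Aqp4 band is thinner in every knockout.

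As a share of this pool, Aqp2 took 40.3%, 26.9% and 39% in the controls and 47.5%, 61.1% and 17% in the knockouts, and Aqp1 took 40.8%, 49.4% and 38.8% against 34%, 22.5% and 52.9%. Knockouts 2 and 3 therefore lay on opposite sides of the controls for both genes, although their summed levels were both low. Aqp3 took 8.4% to 9.16% in the controls and 9.33% to 11.3% in the knockouts, so that every knockout was above every control by a small margin. Aqp4 took 2.84% to 5.21% in the controls and 0.631% to 0.708% in the knockouts, with no overlap and little spread among the knockouts. Aqp6 was at 14.4% in knockout 3 and at 2.67% to 5.27% in the other 5 libraries.

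Ratios between 2 genes of a library do not depend on how libraries are scaled. The log2 ratio of Aqp3 to Aqp4, both basolateral channels of the principal cell, was 0.02, -0.73 and 0.07 in the controls and 2.37, 2.51 and 2.32 in the knockouts. The knockouts were all higher and lay within a narrow band, although their levels of each gene differed more than 6-fold. The mean went from -0.21 ± 0.45 to 2.40 ± 0.10 (SD, n = 3 each), a difference of 2.61 (exact two-sided permutation test, p = 0.1, which is the smallest p that 3 against 3 allows; 0.2 adjusted over 4 ratios). The ratio of Aqp2 to Aqp4 was 1.92, 0.46 and 1.83 in the controls and 4.16, 4.58 and 2.82 in the knockouts. It too was higher in 3 of 3 knockouts, by 2.45 (exact permutation p = 0.1, 0.2 adjusted).

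Neither of the other ratios separated the groups. Aqp2 to Aqp3 was 1.89, 1.19 and 1.76 in the controls and 1.79, 2.07 and 0.49 in the knockouts, a difference of -0.16 (exact permutation p = 0.9, 0.9 adjusted). Only knockout 3 was out of the control range by a wide margin, and without it the difference was 0.31. Aqp2 to Aqp1 was -0.91, -1.77 and -0.89 in the controls and -0.41, 0.55 and -2.53 in the knockouts, which enclosed the controls from both sides (difference 0.39, exact permutation p = 0.8, 0.9 adjusted).

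**Figure D4:**
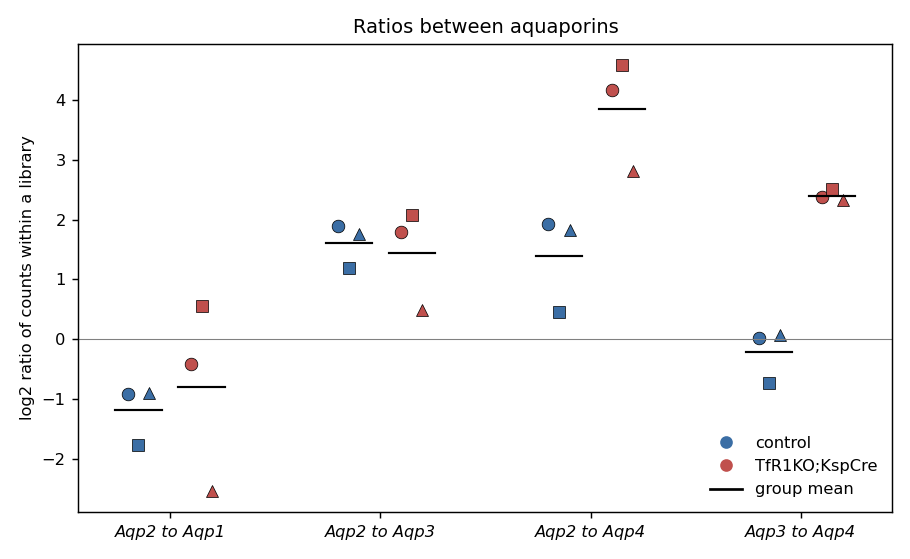
Log2 ratio of the counts of 2 aquaporins within each library, for 4 pairs, with controls in blue, TfR1KO;KspCre in red, replicates 1, 2 and 3 as circles, squares and triangles, and group means as lines. Aqp2 to Aqp4 and Aqp3 to Aqp4 are higher in every knockout, and the 3 knockouts of Aqp3 to Aqp4 lie between 2.32 and 2.51.

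Markers of the cells that hold the channels were read beside them. All 13 tested genes of the first proximal segments (S1 to S2) were called lower, with a median log2 fold change of -2.15. Among them Lrp2, the endocytic receptor megalin, was at 2392 to 3028 CPM in the controls and 898.7, 365.2 and 246.8 CPM in the knockouts, and Slc34a1, the phosphate transporter, at 4194 to 6292 CPM against 2271, 765.2 and 769.6 CPM. Summed over the list the level was 12290 to 17890 CPM in the controls and 5921, 2820 and 2131 CPM in the knockouts, the order among knockouts that Aqp1, Aqp2, Aqp3, Aqp4 and Aqp7 also had. Of 9 genes of the last proximal segment (S3), 2 were called lower (Slc22a7 and Slc5a1) and 0 higher, with a median of -2.22. In this list control 2, the library set apart by sex-linked transcripts, carried much of the difference. Calls in this list fell to 0 without control 1, 2 or 3 alike. DESeq2 called 5 lower, and edgeR without knockout 1 also called 5 lower, with a median of -3.75. The median was -1.03 without control 2, against -1.78 and -2.46 without control 1 and control 3. Without control 2, 3 of the 9 estimates were above 0 (Acsm3, Cyp7b1 and Slc7a13), where with it all 9 were below 0. Acsm3, for one, was at 6.816, 679.3 and 2.221 CPM in the controls and 18.11, 8.18 and 6.588 CPM in the knockouts. The flippase gene Atp11a was at 1965 CPM in control 2 against 501.9 and 419 CPM in the other controls. The part of proximal cell markers in the aquaporin results was not tested.

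Set against Lrp2 within a library, Aqp1 was higher in the knockouts, with a log2 ratio of -1.19 ± 0.44 in the controls and 0.24 ± 0.25 in the knockouts. Aqp7 went from -6.07 ± 0.10 to -5.07 ± 0.18 and Aqp11 from -6.15 ± 0.19 to -5.23 ± 0.50, with separate groups in both. The outcome depends on the marker taken, since the log2 fold changes of the S1 to S2 list ran from -2.75 to -1.29 with Lrp2 at -2.43, and that of Slc13a3 (-1.29) was nearer 0 than those of Aqp7 and Aqp11. Aqp4 against Lrp2 overlapped, at -3.78 ± 0.52 and -4.41 ± 0.48. These ratios were chosen after values were seen and carry no test (SD, n = 3 each).

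In principal cells, 1 of 10 markers was called higher (Gata3) and 0 lower by edgeR, with a median of -0.11. DESeq2 and limma-voom each called 1 higher and 1 lower, and edgeR without knockout 1 called 1 higher and 2 lower (median -0.25). The summed level was 978.8 to 1185 CPM in the controls and 865.5 to 1252 CPM in the knockouts, including 919.9 CPM in knockout 3, where Aqp2 was 56.08 CPM. That sum was below every control, as were 6 of the 10 markers in knockout 3, Avpr2, Elf5, Fxyd4, Hsd11b2, Scnn1g and Tmem45b, against 3 in knockout 1 and 5 in knockout 2. Genes of the neighbouring distal convoluted tubule were low in that library, with sums of 2399 to 3832 CPM in the controls and 2873, 1814 and 372.5 CPM in the knockouts. Among them the sodium chloride cotransporter gene Slc12a3 was at 61.67 CPM and Calb1 at 59.68 CPM in knockout 3. Hsd11b2, which keeps cortisol-like steroids off the mineralocorticoid receptor, was at 259.9 to 383.4 CPM in the controls and 325.3, 162.2 and 219 CPM in the knockouts, and the matrix protein gene Npnt at 294.7 to 462.9 CPM against 414, 321.3 and 315.8 CPM. Against Hsd11b2, Aqp4 was lower in all 3 knockouts, with a log2 ratio of -0.64 ± 0.87 in the controls and -3.47 ± 1.14 in the knockouts (SD, n = 3 each). Aqp2 (0.76 and 0.38) and Aqp3 (-0.85 and -1.07) overlapped on the same scale, with knockout 3 below the controls for both, at -1.96 and -2.46. Among 12 intercalated cell genes 1 was called lower (Insrr) and 0 higher, and their sum was 758.5 to 1044 CPM in the controls and 792.4, 391.7 and 1449 CPM in the knockouts. Aqp6 against the proton pump subunit gene Atp6v1b1 overlapped between the groups (-0.51 and -0.95).

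Other cells were also measured. The summed level of 7 genes of the thin descending limb, the other site of Aqp1, overlapped between the groups at 541.1 to 909.7 CPM in the controls and 459.9 to 733 CPM in the knockouts. Among 10 genes of the thick ascending limb 0 were called by edgeR and by limma-voom, 2 by DESeq2 and 2 had an unadjusted p under 0.05, with a median of -1.36. Without knockout 1, edgeR called 8 of these 10 lower. Of 8 genes of the distal convoluted tubule 1 was called lower (Pvalb), and of 10 endothelial genes 1 was called higher (Egfl7). Red cells also carry AQP1, and of 8 red cell genes 3 could be tested and 0 were called by edgeR. Of these 3, 1 had an unadjusted p under 0.05 by edgeR, and DESeq2 called 1 and limma-voom 0. The 4 globin genes listed had 0 counts in all libraries, and Slc4a1, 1 of the 3, is also in the intercalated cell list. The red cell list therefore cannot show how much red cell RNA the libraries held. Immune markers (8 of 10 higher), fibroblast markers (4 of 8 higher, Col1a1, Col1a2, Col3a1 and Acta2) and tubular injury genes (9 of 11 higher) moved the other way, with medians of 2.82, 2.86 and 2.95 and 0 called lower in each. Summed urothelial genes stood at 34.34 to 82.69 CPM in the controls and 84.46, 905.4 and 30.41 CPM in the knockouts, high in knockout 2 alone, and 1 of 8 was called higher (Krt20). Adipocyte genes, whose cells also express Aqp7, summed to 303.3 to 604 CPM in the controls and 168.6, 536 and 893.1 CPM in the knockouts, the reverse of the Aqp7 order among the knockouts, and 0 of 8 were called by edgeR, DESeq2 or limma-voom (1 at an unadjusted p under 0.05 by edgeR). Like the aquaporin calls, all list calls were lost without control 1, 2 or 3 or knockout 3. Without knockout 2 those of the S1 to S2 list went from 13 to 0, while 3 immune and 2 tubular injury genes were called higher and 1 S3 gene was called lower. The part of these cells in the aquaporin results was not tested.

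**Figure D5:**
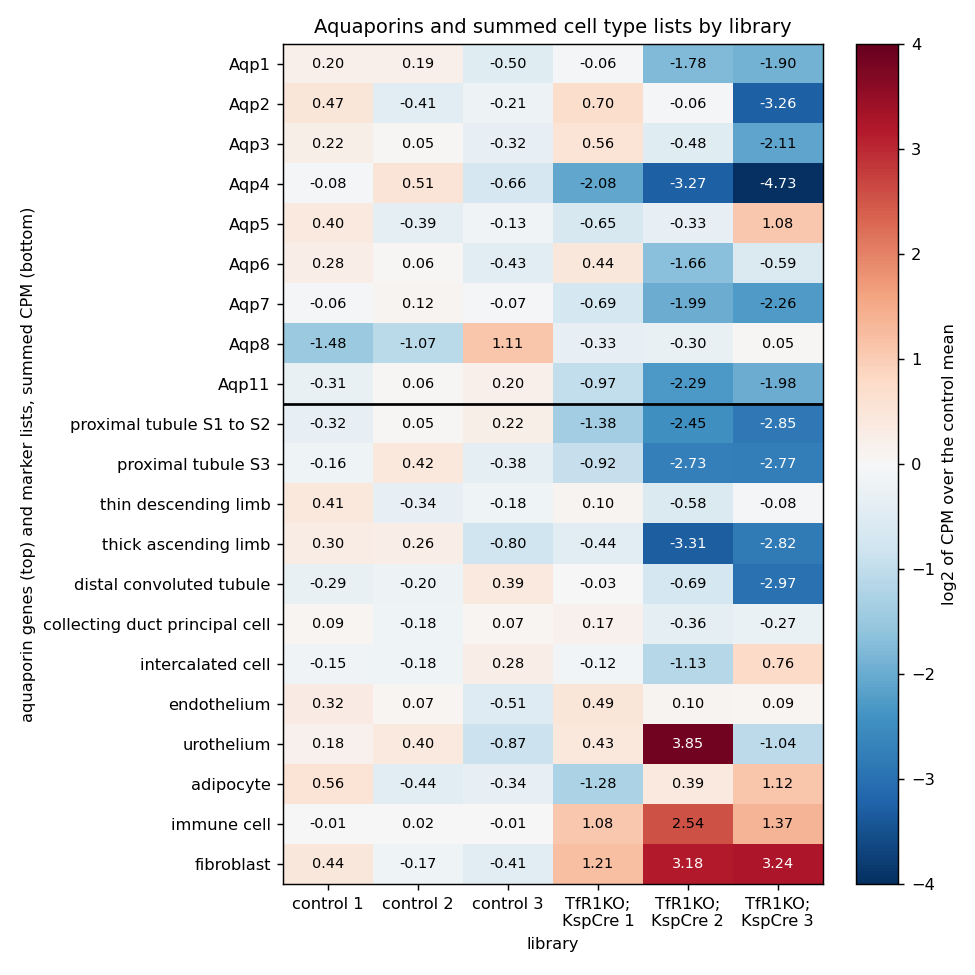
Log2 of CPM over the control mean, for the 9 aquaporins (above the line) and for the summed CPM of 12 marker lists (below it), in each of the 6 libraries; red is above and blue below the control mean, and colours end at 4 and -4. Aqp2 and Aqp3 are lowest in knockout 3 while the principal cell sum there is -0.27, and Aqp4 is at -2.08, -3.27 and -4.73 in knockouts 1, 2 and 3.

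The genes that signal to Aqp2 were then examined. Of 23 genes of vasopressin signalling and Aqp2 control, 4 were called higher, 1 lower and 18 neither, with a median log2 fold change of -0.06. The same fit called 10.6% of all genes higher and 6.64% lower. Avpr2, the V2 receptor, stood at 44.3 to 55.13 CPM in the controls and 49.91, 30.36 and 21.68 CPM in the knockouts (log2 fold change -0.52, adjusted p = 0.236 by edgeR). Without knockout 1 Avpr2 was called lower, at -0.91 (adjusted p = 0.0175 by edgeR), and the list then had 5 genes called higher and 4 lower. That fit called 34.4% of all genes, 16.4% as lower. Over all libraries, Adcy6, the main adenylyl cyclase of the V2 receptor, gave -0.08 and Nfat5, the tonicity factor, 0.24 (adjusted p = 0.844 and 0.348 by edgeR). The genes called higher were Pde4b, a cyclic AMP phosphodiesterase (0.83), the prostaglandin E2 receptor gene Ptger4 (1.92), and the transcription factor genes Elf3 (1.69) and Gata3 (0.84). Nr1h4, the bile acid receptor FXR, was called lower (-1.59). Which cells carried these transcripts was not tested.

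Elf5, a principal cell transcription factor gene, lay in every knockout below every control, at 17.91, 13.52 and 14.65 CPM against 8.932, 3.914 and 2.528 CPM. It missed the threshold in edgeR (log2 fold change -1.57, SE 0.46, adjusted p = 0.0561) and passed it with DESeq2 (adjusted p = 0.00455) and limma-voom (adjusted p = 0.0439). Of 19 genes that move AQP2 vesicles or recycle the channel, 0 were called with edgeR or limma-voom, and the median was -0.31. By edgeR, 6 had an unadjusted p under 0.05, as did 5862 of all 15171 genes. DESeq2 called 6 of the 19, 5 of them lower, and 32.2% of all genes, 15.0% as lower. Without knockout 1, edgeR called 1 higher and 6 lower, and 34.4% of all genes, 16.4% as lower. The most abundant of the 19, the chaperone gene Hspa8, was at 2035 to 2216 CPM in the controls and 1680, 1481 and 1302 CPM in the knockouts.

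Urea transport helps to set the medullary gradient that draws water through these channels. Of 10 tested genes of urea and osmolyte handling, 1 was called higher and 1 lower, with a median of -0.50. The higher one was Pla2g15, a lysosomal phospholipase (1.01), and the lower one Hspa4l, a chaperone induced by high salt (-0.83). Not all of the 10 are transporter genes, and neither called gene is one. Pla2g15 lost its call with limma-voom (adjusted p = 0.0513) and Hspa4l with library size alone (-0.56, adjusted p = 0.0866), and without knockout 1 the genes called lower went from 1 to 6. The urea transporter genes Slc14a1, at 19.21 to 28.76 CPM in the controls and 40.39, 74.17 and 4.98 CPM in the knockouts, and Slc14a2, at 173.2 to 305.7 against 202.6, 72.97 and 126.8 CPM, were not called (log2 fold change 0.80 and -0.73, adjusted p = 0.476 and 0.219 by edgeR). Without knockout 1, Slc14a2 was called lower (-1.16, adjusted p = 0.0454). Slc14a1, like Aqp2, was lowest in knockout 3, but its highest level was in knockout 2. The osmolyte transporter genes Slc6a12 (-2.31), Slc5a3 (-1.67) and Slc6a6 (-0.06) were not called (adjusted p = 0.1535, 0.09374 and 0.9048 by edgeR).

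The genes most like each channel over the 6 libraries were found by the root mean square distance between centred log2 CPM profiles, among 11337 genes of at least 3 in average log2 CPM. Among the 3 nearest to Aqp7 were Sardh (0.066) and Fitm1 (0.083), where the median gene was at 0.948. For Aqp11 the nearest were Mlxipl (0.072), Tmem25 (0.073) and Rab11fip3 (0.091), with a median of 0.961. The nearest aquaporin to either of them was the other one, at 0.244. For Aqp1 they were Plau (0.128), Cyfip2 (0.174) and Mtfp1 (0.178), with Aqp7 the nearest aquaporin at 0.321.

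Aqp4 was nearest to Slc10a2, the apical bile acid transporter (0.25), Mpv17l (0.3) and Ugt3a2 (0.346), against a median gene at 1.821. No other aquaporin came close to it, Aqp7 being the nearest at 0.945. For Aqp2 the nearest were Mcoln3 (0.455), Prom2 (0.467) and Calb1, a calcium-binding protein gene of the distal convoluted tubule (0.533), and the nearest aquaporin was Aqp3 (0.536). For Aqp3 they were Car15 (0.309), Rab27a (0.311) and Plvap, an endothelial gene (0.313). For Aqp6 they were Sim2 (0.206), Gal3st1 (0.21) and Bsnd, a chloride channel subunit gene (0.21). These distances describe 6 libraries that share 2 groups, and Aqp5 and Aqp8 were too low to enter.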

How the data were processed

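Whole kidney poly-A RNA in 3 control and 3 TfR1KO;KspCre libraries was analysed from 2 deposited tables, 1 per group, of raw counts per gene. Per the labels and the study's methods, the authors used Illumina TruSeq kits and CASAVA 1.8.2, trimmed with Trimmomatic, aligned with TopHat2 2.0.11 to mm9 and counted with HTSeq, so the deposited counts carry no normalization. The annotation and strand setting were not given in the sources used here, so overlapping and antisense genes are uncertain. Both tables listed 24422 genes, 20791 of which matched GENCODE M1 by name.

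Groups and replicate numbers came from sample titles. Counts were analysed with edgeR 4.0.16 (R 4.3.3): filterByExpr (minimum count 10, minimum total 15; 15171 genes kept), TMM scaling, and the quasi-likelihood test over all 6 libraries with no covariate, adjusted by Benjamini-Hochberg over all tested genes. The SE is the size of the log2 fold change over the square root of F. Ratios used log2 of the raw counts with 2 added to each count, and an exact permutation test (scipy 1.17.1). Levels between genes used merged exon length. Genes named are the 9 aquaporins and other aquaporin genes; from the water handling lists every called gene plus Avpr2, Elf5, Slc14a1, Slc14a2, Nfat5 and Adcy6; at most the 2 most abundant genes of each cell type list, and the 3 nearest profiles of each channel. Insrr, Pvalb, Egfl7, Krt20, Slc22a7, Slc5a1, Acsm3, Cyp7b1, Slc7a13, Slc13a3, Fxyd4, Scnn1g, Tmem45b, Col1a1, Acta2, Hspa8, Slc6a12, Slc5a3 and Slc6a6 were named outside that rule after their values were seen. The aquaporins, lists and tests were chosen with earlier results of these data known. Alternatives were other scalings, filters, DESeq2 1.42.0, limma-voom (limma 3.58.1), an Xist-to-Y covariate, a replicate block and leaving out each library. Between replicates the chi-square per degree of freedom was 52.9 to 125.5, far above sampling noise, so each library counted once. Tests were checked on simulated data. Some items are not reported here.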

Additional observations from a re-analysis of the deposited data

How the results depend on the processing

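Calls depended on the libraries more than on the scaling or the test. Aqp4 and Aqp11 were called under every scaling, filter and tool tried, whereas Aqp7 lost its call with library size alone (-1.22, adjusted p = 0.0512) and with at least 10 counts in every library (-1.45, adjusted p = 0.0502). DESeq2's Wald test called 4882 genes (32.2%) and limma-voom 13.4% of genes, and 3 aquaporins in each. With the replicate number as a block, 0 genes and 0 aquaporins were called (5432 genes and 4 aquaporins at an unadjusted p under 0.05), with Aqp4 at -3.28, Aqp7 at -1.64 and Aqp11 at -1.73. The numbers were not shown to pair the libraries, since deviations of same-numbered libraries correlated at -0.13, 0.01 and 0.21. With the Xist-to-Y covariate the counts were also 0 and 0 (4221 genes and 3 aquaporins at an unadjusted p under 0.05), with Aqp4 at -2.68, Aqp7 at -1.42 and Aqp11 at -1.60.

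Leaving out each library gave 0 to 5332 called genes and 0 to 4 called aquaporins (edgeR; 4808, 4270 and 4823 genes at an unadjusted p under 0.05 without control 1, 2 and 3). The log2 fold change then ranged from -3.82 to -2.56 for Aqp4, -2.12 to -1.20 for Aqp7, -2.14 to -1.38 for Aqp11, -1.85 to -0.68 for Aqp1, -0.91 to 0.37 for Aqp2, -1.08 to 0.13 for Aqp3, -0.49 to 0.51 for Aqp5, -1.04 to 0.0142 for Aqp6 and -0.61 to 1.06 for Aqp8. The ratio difference ranged from -0.28 to 1.26 for Aqp2 to Aqp1, from -0.47 to 0.31 for Aqp2 to Aqp3, from 1.98 to 2.97 for Aqp2 to Aqp4 and from 2.36 to 2.75 for Aqp3 to Aqp4. Values that changed sign without being called were Aqp2 (0.0662) and Aqp8 (0.0882) with library size alone, which moved the median of all genes to 0.29, Aqp5 (-0.0178) and Aqp8 (0.28) with limma-voom, Aqp8 (0.22) with the replicate block, Adcy6 (0.19 with library size alone, and -0.29 to 0.12 leaving out each library) and Slc14a1 (-0.00647 to 1.32 leaving out each library). The cause was not tested. Aqp8 had no value under the filter of 10 counts in every library. Aqp5, Aqp8 and Aqp9 rest on 3 to 49 counts per library.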
